A study of Homo sapiens with 6 samples.

Results

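The genes described here are 35 enzymes and carrier proteins that remove reactive oxygen species in SH-SY5Y cells, together with those that repair oxidised protein thiols and methionines, supply the NADPH they consume or store iron. They were taken from a fixed list of gene symbols, and every probe set whose annotation names 1 gene alone, that gene being on the list, was used. Of the 35 genes, 32 were measured in this way, by 86 probe sets, among 18132 genes measured on the arrays in all. SOD2, PRDX5 and FTH1 had no probe set of this kind and are not analysed here. Each gene is represented by its brightest probe set, chosen on the mean of all 6 arrays and not on the comparison. SH-SY5Y is an established human neuroblastoma line with sympathetic neuron-like features. Cells of both groups grew in a serum-containing medium. The endosulfan group was 3 arrays of RNA from cells given the organochlorine insecticide endosulfan at 3 µM, a dose below the LC50, for 24 h. The control group was 3 arrays of the same line labelled as control, for which the labels name no vehicle. The labels call the arrays of a group biological replicates without naming a passage or a day, so the p-values measure the spread between these arrays, which may be partly technical. Values are log2 RMA intensities, which depend on the probes as well as on the transcript, so differences are taken only within a probe set across arrays, and a level is set beside the array median only as a rough description. In such bulk RNA, fewer cells of a kind and less RNA per cell cannot be told apart.

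Superoxide, which leaks from mitochondria and oxidases, is turned into hydrogen peroxide by superoxide dismutases. Hydrogen peroxide is then removed by catalase in peroxisomes, by glutathione peroxidases at the expense of glutathione, and by peroxiredoxins at the expense of thioredoxin. Glutathione and thioredoxin are reduced again by reductases that draw on NADPH, which the pentose phosphate pathway and malic enzyme supply. Several of these genes are known targets of the transcription factor NRF2, which binds antioxidant response elements when cells meet electrophiles or oxidants, and neurons are known for a modest glutathione and catalase capacity.

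All 11 measured sympathetic neuroblastoma markers had a level above the array medians of 4.89 to 4.94, TH, the rate-limiting enzyme of catecholamine synthesis, and the transcription factor HAND2 included. Their mean differed between the groups, at 10.9 to 11.1 in control and 10.5 to 10.7 in endosulfan arrays without overlap, with a median log2 fold change of -0.18, and its part in the results was not tested. Of the markers of other cell types, 1 of 5 haematopoietic, 3 of 5 epithelial, 3 of 4 endothelial, 3 of 3 Schwann and glial, and 2 of 5 fibroblast genes lay above the array medians, and with no detection calls such levels do not show presence. No marker of these lists passed the test with limma over all genes. Control 1 and endosulfan 1 were the least alike of the arrays. Their Pearson's r across genes, which are not independent replicates, was 0.959, whereas control 2 and control 3 correlated at 0.995. With the remaining arrays r was 0.973 to 0.989 for control 1 and 0.980 to 0.994 for endosulfan 1. How often endosulfan 1 was an extreme over all genes is not given here. Control 1 was the highest or the lowest of the 6 arrays for 59.2% of all genes and for 26 of the 32 antioxidant genes. The poly-A spike-ins, bacterial transcripts added to the RNA before labelling, were at 6.13, 7.73 and 5.84 in the control and 7.81, 7.73 and 8.80 in the endosulfan arrays (log2). The part of control 1 and of the spike-in level in the results that follow was not tested except by the fits without that array and with that level as a covariate.

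No antioxidant gene changed at the threshold of the comparison. With limma and Benjamini-Hochberg adjustment over 18132 genes, 0 of the 32 genes had an adjusted p below 0.05 in either direction, and the adjusted p ran from 0.202 to 0.973. Over all genes 0.00552% passed as higher and 0.0% as lower. Of the 86 probe sets, 0 passed when adjusted over all probe sets, of which 0.00811% passed as higher and 0.0% as lower. The differences were small: log2 fold changes lay between -0.68 and 0.59, which is 1.60-fold lower to 1.51-fold higher. Of the 32 genes, 22 lay on the higher and 10 on the lower side, with a median log2 fold change of 0.09, beside 60.2% of genes on the higher side and a median of 0.05 over all genes.

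At an unadjusted p below 0.05 with limma, 5 antioxidant genes were on the higher side, or 15.6%, and 0 on the lower, while 6.64% of all genes were called higher and 10.5% lower in this way. The groups did not overlap for 8 genes, or 25.0%, each with every endosulfan array above every control array, and for 0 genes in the opposite direction. Over all genes the groups of 12.4% did not overlap in the higher and of 10.2% in the lower direction. Of the 32 genes, 26 had a level above the median of all genes, and among the 9066 genes above the median level these shares were 13.6% and 14.1%, with 9.24% higher and 15.4% lower at an unadjusted p below 0.05. The 8 genes were SOD1, PRDX4, GLRX2, GLRX5, PGD, TALDO1, TKT and FTL. These counts rest on the brightest probe set of each gene. Among the other genes, a dimmer probe set did not overlap in the lower direction in CAT and MSRB3 and in the higher direction in GPX8 and TXNRD2. A dimmer probe set had an unadjusted p below 0.05 with limma on the lower side in PRDX3, ME1 and GLRX, and on the higher side in TXNRD2 and MSRB3. The 95% confidence interval of the difference lay within 1.5-fold in either direction for 19 of the 32 genes, and it reached beyond 1.5-fold for the other 13. It lay within 1.5-fold for 63.5% of all genes and for 47.4% of those above the median level.

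**Figure D1:**
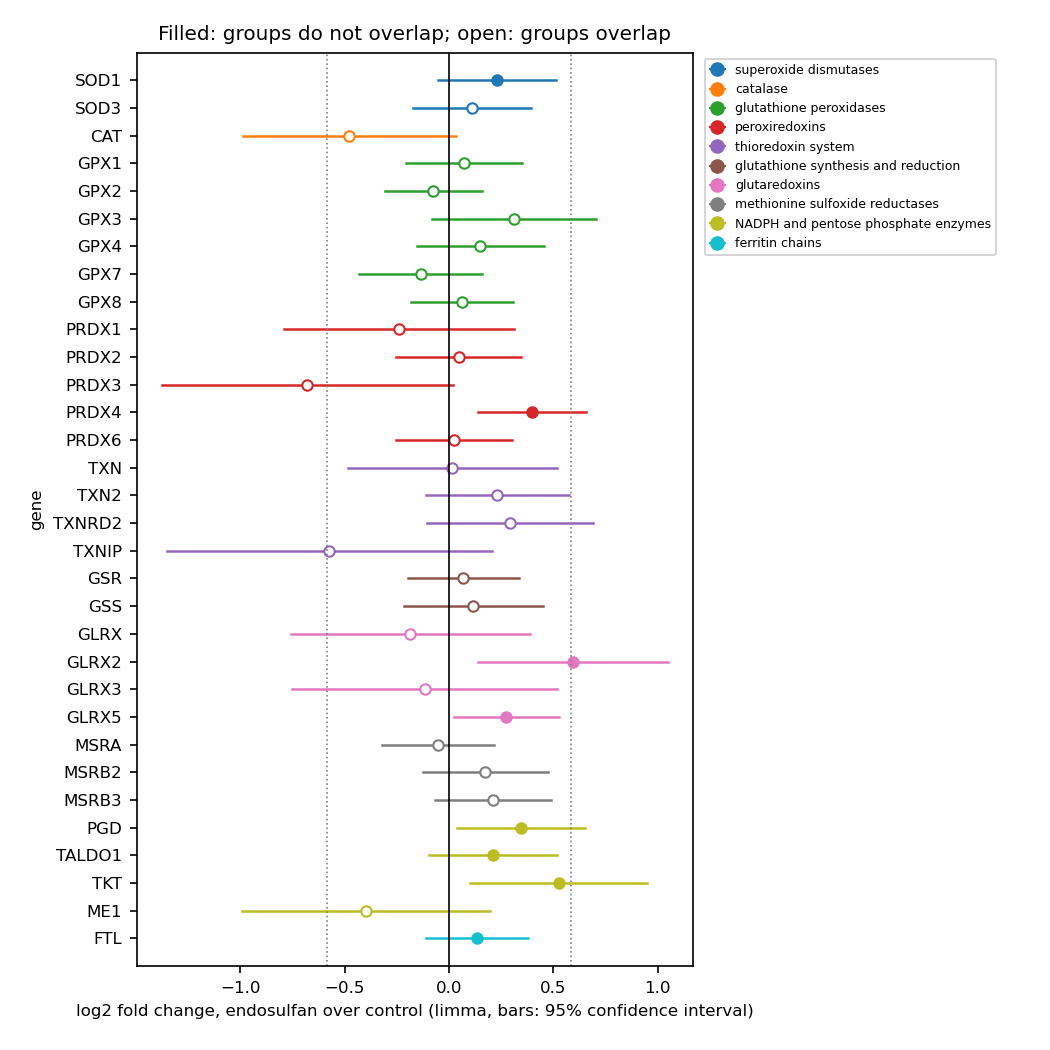
Log2 fold change of endosulfan over control (x axis) for each of the 32 antioxidant genes (y axis), coloured by enzyme class, with limma's 95% confidence interval as a bar from 3 arrays per group and dotted lines at 1.5-fold. The 8 filled points are genes whose groups do not overlap, and all 8 lie to the right of 0. The widest bars belong to PRDX3 and TXNIP.

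Superoxide dismutases did not differ at the threshold. SOD1, the cytosolic copper and zinc enzyme, was at 12.16, 12.06 and 11.95 in the control arrays and at 12.18, 12.45 and 12.22 in the endosulfan arrays. The groups did not overlap, but endosulfan 1 exceeded control 1 by little. The log2 fold change was 0.23 ± 0.12 (SE, n = 3 each), adjusted p = 0.360 (limma, Benjamini-Hochberg), and all 3 probe sets of the gene had the same sign. SOD3, the secreted form, ran from 6.91 to 7.19 in control and from 7.08 to 7.29 in endosulfan arrays, so that its groups overlapped.

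Catalase, CAT, which breaks down hydrogen peroxide in peroxisomes, was at 6.06, 5.54 and 5.53 in control and at 4.83, 5.56 and 5.30 in endosulfan arrays. Control 1 was the highest and endosulfan 1 the lowest array, whereas endosulfan 2 lay just above control 2 and control 3. The log2 fold change was -0.48 ± 0.22 (SE, n = 3 each), adjusted p = 0.310 (limma, Benjamini-Hochberg). Without control 1 it was -0.30. Both probe sets of CAT lay on the lower side. On the dimmer one, at 3.46, 3.85 and 3.46 in control and 3.44, 3.35 and 3.23 in endosulfan arrays, the groups narrowly did not overlap.

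The 6 glutathione peroxidases had log2 fold changes from -0.14 to 0.31, with a median of 0.07, and the groups of all 6 overlapped. GPX1, the main cytosolic enzyme, was at 12.33, 12.63 and 12.58 in control and at 12.64, 12.57 and 12.54 in endosulfan arrays. GPX4, which reduces lipid hydroperoxides in membranes and so guards against ferroptosis, was at 12.04, 12.47 and 12.31 in control and at 12.44, 12.40 and 12.42 in endosulfan arrays. In both genes control 1 was the lowest array and the other 5 lay close together. The 95% interval of the log2 fold change ran from -0.21 to 0.35 for GPX1 and from -0.15 to 0.45 for GPX4. GPX3, the plasma form, had the highest difference of the class at 0.31 ± 0.17 (SE, n = 3 each) on a dim probe set, with 4.99 in control 1 and 5.83 in endosulfan 1 as its extremes. GPX2, known from the gut epithelium, was at 4.97 to 5.12 over all arrays, and the endoplasmic reticulum enzymes GPX7 and GPX8 had differences of -0.14 and 0.06. GPX8 was at 2.57 to 2.78 over the 6 arrays, with no detection call at hand.

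The peroxiredoxins, thiol enzymes that reduce hydrogen peroxide through a reactive cysteine, lay on both sides. PRDX4, the form of the endoplasmic reticulum, was at 11.10, 11.33 and 11.18 in control and at 11.54, 11.66 and 11.60 in endosulfan arrays. The endosulfan arrays lay close together and all above the control arrays. PRDX4 was 1.32-fold higher, with a log2 fold change of 0.40 ± 0.11 (SE, n = 3 each) and an adjusted p of 0.202 by limma (Benjamini-Hochberg), the smallest of the 32 genes. The difference was 0.35 to 0.47 when each array was left out in turn. It has 1 probe set, so a second reading of the same transcript was not at hand.

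PRDX3, the mitochondrial peroxiredoxin, had the most negative difference of the 32 genes. It was at 9.06, 8.61 and 8.75 in control and at 7.52, 8.80 and 8.05 in endosulfan arrays. Endosulfan 1 and endosulfan 3 lay below all control arrays, whereas endosulfan 2 lay between control 3 and control 1. The log2 fold change was -0.68 ± 0.30 (SE, n = 3 each), adjusted p = 0.300 (limma, Benjamini-Hochberg), and its second probe set lay on the same side. The difference was -1.02 without endosulfan 2, -0.37 without endosulfan 1 and -0.25 without control 1 and endosulfan 1 together. The cytosolic PRDX1 was at 12.03, 11.10 and 11.45 in control and at 11.13, 11.55 and 11.17 in endosulfan arrays, a difference of -0.24 that became 0.01 without control 1. PRDX2, a neuronal cytosolic form, and PRDX6, which also has phospholipase activity, had differences of 0.05 and 0.02 with all groups overlapping. The 4 probe sets of PRDX6 disagreed, with log2 fold changes from -0.25 to 0.02.

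**Figure D2:**
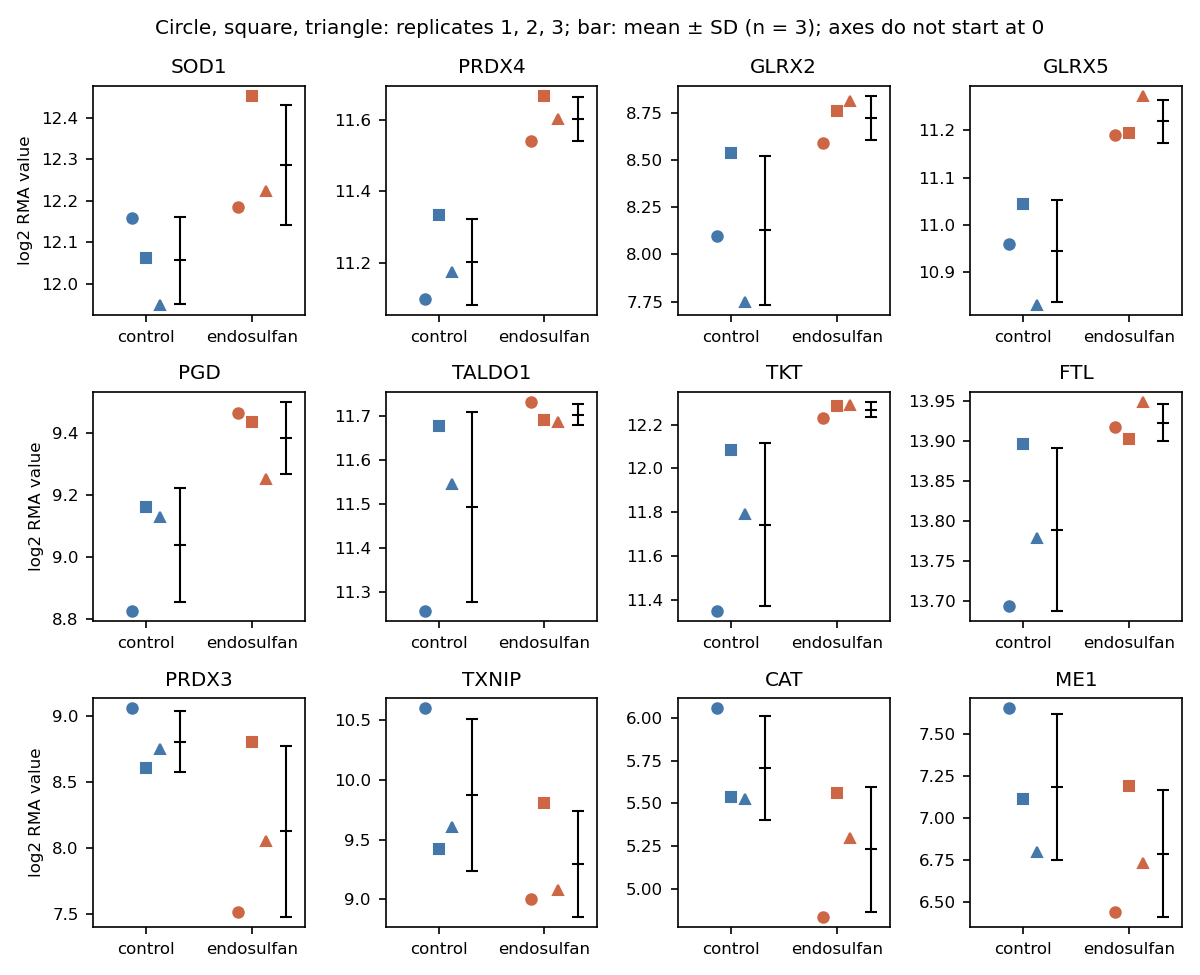
Log2 RMA value (y axes, which do not start at 0) in each of the 3 control and 3 endosulfan arrays for the 8 genes whose groups do not overlap (top 2 rows) and for the 4 genes with the most negative differences (bottom row, chosen after their values were seen). Points are arrays, with circle, square and triangle for replicates 1, 2 and 3, and bars are the mean ± SD (n = 3). In PRDX3, TXNIP, CAT and ME1 control 1 is the highest of all arrays and endosulfan 2 the highest of its group.

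In the thioredoxin system, the donor TXN and the mitochondrial TXN2 had differences of 0.02 and 0.23. TXN was at 11.49, 10.82 and 10.69 in control and at 10.96, 11.22 and 10.87 in endosulfan arrays, so control 1 was the highest and the remaining arrays were mixed. The log2 fold changes of its 5 probe sets ran from 0.02 to 0.06. TXNRD2, the mitochondrial thioredoxin reductase, was at 6.04, 6.52 and 6.52 in control and at 6.78, 6.43 and 6.75 in endosulfan arrays, a log2 fold change of 0.29 ± 0.17 (SE, n = 3 each) that was 0.13 without control 1. TXNIP, the inhibitor that binds reduced thioredoxin and also limits glucose uptake, was at 10.59, 9.42 and 9.60 in control and at 9.00, 9.81 and 9.08 in endosulfan arrays. Control 1 lay far above the rest, and endosulfan 2 lay above the other control arrays. The difference of TXNIP was -0.57 ± 0.34 (SE, n = 3 each), adjusted p = 0.400 (limma, Benjamini-Hochberg), and was -0.21 without control 1. Its 5 probe sets all lay on the lower side, from -0.73 to -0.05.

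Glutathione itself is made by GSS in the second step of its synthesis and reduced by GSR. GSR was at 9.92 to 10.12 in control and at 10.01 to 10.20 in endosulfan arrays, and GSS at 7.60 to 8.03 and 7.81 to 8.08. Their differences were 0.07 and 0.12, with 95% intervals from -0.20 to 0.34 for GSR and from -0.22 to 0.45 for GSS. The groups of both genes overlapped.

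Among glutaredoxins, which use glutathione to reduce mixed disulfides, 2 forms of mitochondria were on the higher side without overlap and 2 forms of the cytosol were not. GLRX2 was at 8.10, 8.54 and 7.75 in control and at 8.59, 8.76 and 8.81 in endosulfan arrays. The control arrays were spread widely, and control 2 lay just under endosulfan 1. GLRX2 had the highest difference of the 32 genes, 1.51-fold, at a log2 fold change of 0.59 ± 0.20 (SE, n = 3 each) and an adjusted p of 0.224 by limma (Benjamini-Hochberg). In the fit that also takes the poly-A level, its difference was 0.12.

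GLRX5, which acts in mitochondrial iron-sulfur cluster assembly, was at 10.96, 11.04 and 10.83 in control and at 11.19, 11.19 and 11.27 in endosulfan arrays. The groups stood apart, and the same held for each of its 3 probe sets, with log2 fold changes of 0.28, 0.27 and 0.24. The kept probe set gave 0.27 ± 0.11 (SE, n = 3 each), adjusted p = 0.265 (limma, Benjamini-Hochberg). GLRX and GLRX3, cytosolic forms, had differences of -0.19 and -0.12 with SDs of 0.31 to 0.46 within groups. In both genes control 1 was the highest array and endosulfan 2 came next. Whether mitochondrial and cytosolic forms differ was not tested.

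The methionine sulfoxide reductases repair oxidised methionine in proteins. MSRA, MSRB2 and MSRB3 had differences of -0.05, 0.17 and 0.21, and their groups overlapped. In each of these genes the probe sets disagreed in sign. MSRB2 was at 11.32, 11.70 and 11.57 in control and at 11.79, 11.64 and 11.69 in endosulfan arrays on its brightest probe set, at a log2 fold change of 0.17, whereas its second probe set gave -0.28.

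**Figure D3:**
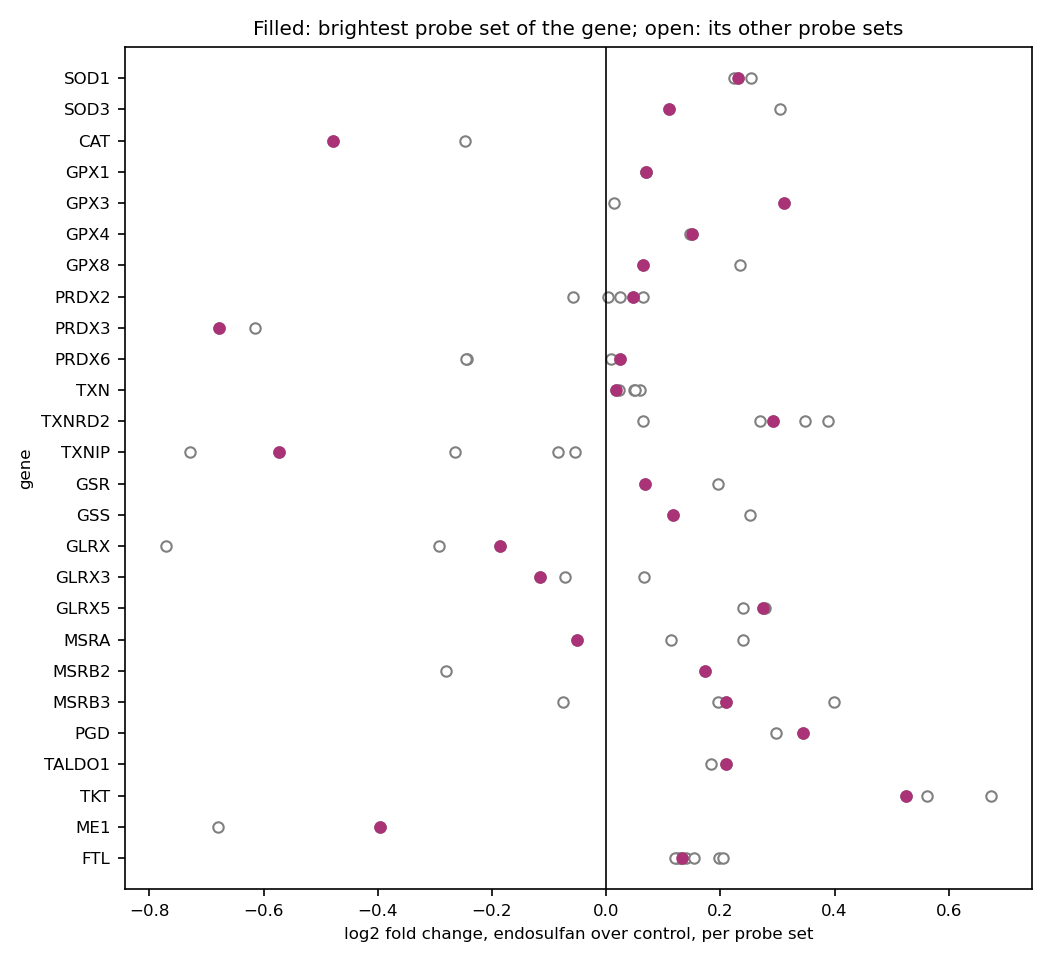
Log2 fold change of endosulfan over control (x axis) of every one-gene probe set for the 26 antioxidant genes with several (y axis). Filled points are the brightest probe set, which represents the gene, and open points the others. For 20 genes all probe sets lie on 1 side of 0, and for 6 (PRDX2, PRDX6, GLRX3, MSRA, MSRB2 and MSRB3) they lie on both.

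The 3 pentose phosphate enzymes PGD, TALDO1 and TKT all lay on the higher side without overlap. TKT, the transketolase that links the pathway to glycolysis, was at 11.35, 12.09 and 11.79 in control and at 12.23, 12.29 and 12.29 in endosulfan arrays. All endosulfan arrays lay together above the controls, which were spread over a far wider range. TKT was 1.44-fold higher, with a log2 fold change of 0.53 ± 0.18 (SE, n = 3 each) and an adjusted p of 0.234 by limma (Benjamini-Hochberg). Its 3 probe sets gave 0.56, 0.53 and 0.67, each without overlap. Without control 1 the difference was 0.33.

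PGD, the second NADPH-producing dehydrogenase of the pathway, was at 8.83, 9.16 and 9.13 in control and at 9.46, 9.43 and 9.25 in endosulfan arrays. The groups did not overlap on either of its probe sets. The log2 fold change was 0.34 ± 0.13 (SE, n = 3 each), adjusted p = 0.257 (limma, Benjamini-Hochberg), and 0.24 without control 1. TALDO1, the transaldolase, was at 11.26, 11.68 and 11.55 in control and at 11.73, 11.69 and 11.69 in endosulfan arrays. Endosulfan 2 and endosulfan 3 exceeded control 2 by little, and the difference of 0.21 ± 0.13 (SE, n = 3 each) was 0.09 without control 1.

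ME1, the cytosolic malic enzyme, which also yields NADPH, was on the opposite side. It was at 7.65, 7.11 and 6.80 in control and at 6.45, 7.19 and 6.73 in endosulfan arrays, so the groups overlapped. The difference was -0.40 ± 0.26 (SE, n = 3 each), adjusted p = 0.444 (limma, Benjamini-Hochberg), and -0.16 without control 1. Both of its probe sets lay on the lower side. Whether ME1 differs in its response from the pentose phosphate enzymes was not tested.

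The promoters of these NADPH enzymes are shown, with a stretch of that of GPX2. PGD and ME1 are among the known NRF2 targets. They lay on opposite sides, but neither passed the adjusted threshold. The 250 bases before each annotated start were taken from RefSeq (GRCh38.p14), which gave a promoter for 26 of the 35 genes, 24 of them measured. No entry was matched for SOD1, PRDX1, PRDX6, TXN2, GSR, GSS, GLRX3, MSRA and FTH1. The antioxidant response element core was searched as TGACNNNGC and the CCAAT box as CCAAT, on both strands, and any matches are in capitals. The sequences read 5′ to 3′ on the strand of the gene: PGD at chr1:10398814-10399063 (plus strand), TKT at chr3:53256023-53256272 (minus strand), TALDO1 at chr11:747214-747463 (plus strand), ME1 at chr6:83431052-83431301 (minus strand), and for GPX2 the 61 bases around its match at chr14:64942833-64942893 (minus strand).
PGD: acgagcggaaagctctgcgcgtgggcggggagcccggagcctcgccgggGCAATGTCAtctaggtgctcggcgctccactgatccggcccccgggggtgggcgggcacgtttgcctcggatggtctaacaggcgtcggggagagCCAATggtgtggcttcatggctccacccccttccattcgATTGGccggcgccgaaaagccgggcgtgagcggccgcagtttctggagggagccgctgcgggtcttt
TKT: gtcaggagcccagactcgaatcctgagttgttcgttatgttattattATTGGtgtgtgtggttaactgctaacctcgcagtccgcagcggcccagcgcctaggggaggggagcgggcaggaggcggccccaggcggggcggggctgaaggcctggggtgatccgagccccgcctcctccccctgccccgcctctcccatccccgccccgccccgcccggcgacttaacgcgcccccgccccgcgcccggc
TALDO1: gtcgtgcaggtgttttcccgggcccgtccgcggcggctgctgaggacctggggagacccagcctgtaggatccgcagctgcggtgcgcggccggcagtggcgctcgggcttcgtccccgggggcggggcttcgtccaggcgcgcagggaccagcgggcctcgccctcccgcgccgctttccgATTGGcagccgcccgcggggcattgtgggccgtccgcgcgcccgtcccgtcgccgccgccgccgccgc
ME1: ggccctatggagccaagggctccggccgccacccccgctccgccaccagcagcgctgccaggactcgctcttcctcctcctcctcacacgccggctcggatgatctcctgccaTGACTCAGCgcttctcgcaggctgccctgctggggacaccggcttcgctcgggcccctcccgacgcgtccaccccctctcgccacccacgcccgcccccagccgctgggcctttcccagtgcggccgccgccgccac
GPX2: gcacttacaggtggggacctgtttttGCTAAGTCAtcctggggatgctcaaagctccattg

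The antioxidant response element core was found in 3 of the 26 promoters, those of PGD, ME1 and GPX2, and in 13.2% of 27305 genes with a promoter in the table. It reads TGACATTGC on the reverse strand in PGD, where the base of the match nearest to the start lies 193 bases before it. In ME1 it reads TGACTCAGC on the forward strand, at 129 bases, and in GPX2 TGACTTAGC on the reverse strand, at 114 bases. The log2 fold changes of these genes were 0.34, -0.40 and -0.08, none with an adjusted p below 0.05 by limma. Whether the core goes with a direction was not tested. The CCAAT box was found in PGD, TKT and TALDO1 and in 37.0% of all genes, and not in ME1 within this window. It was found in 13 of the 26 promoters, CAT and TXNIP included, which lay on the lower side. These matches describe letters in the window and do not show binding.

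Of the ferritin chains that store iron, FTL, the light chain, was at 13.69, 13.90 and 13.78 in control and at 13.92, 13.90 and 13.95 in endosulfan arrays. Endosulfan 2 and control 2 were level to the second decimal, although the groups formally did not overlap. The difference was 0.13 ± 0.11 (SE, n = 3 each), adjusted p = 0.524 (limma, Benjamini-Hochberg). All 8 probe sets of FTL had log2 fold changes from 0.12 to 0.20, and 4 of them did not overlap between groups, beside 11.5% of all probe sets in the higher and 9.24% in the lower direction. Near-identical pseudogene copies of FTL, PRDX1, SOD1 and TXN are known, and 13 of the 32 kept probe sets are of the kinds that the array's naming marks as able to match more than 1 transcript, so these readings are uncertain as to source.

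Across the 6 arrays control 1 was the lowest array for 16 genes, all 16 of which lay on the higher side in endosulfan, and the highest for 10 genes, 9 of which lay on the lower side. This is in part arithmetic, since control 1 enters the control mean. Leaving it out, 4 genes were on the higher and 0 on the lower side at an unadjusted p below 0.05. The share of all genes called in that fit is not given here, so these counts are not read as a result about the antioxidant genes. Without control 1, 26 of the 32 differences kept their sign, with PRDX1, PRDX2, PRDX6, GPX1, GSS and GLRX3 as the exceptions. Among the 10 genes on the lower side, endosulfan 2 was the highest endosulfan array for 7, and endosulfan 1 the lowest of all arrays for 6, whereas in GPX2, GPX7 and MSRA endosulfan 1 was the highest endosulfan array. Within groups, the median SD of the 32 genes was 0.21 in control and 0.12 in endosulfan arrays, and 23 genes had the smaller SD in endosulfan. The SDs of all genes are not given here, so this is not read as a trait of the antioxidant genes.

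**Figure D4:**
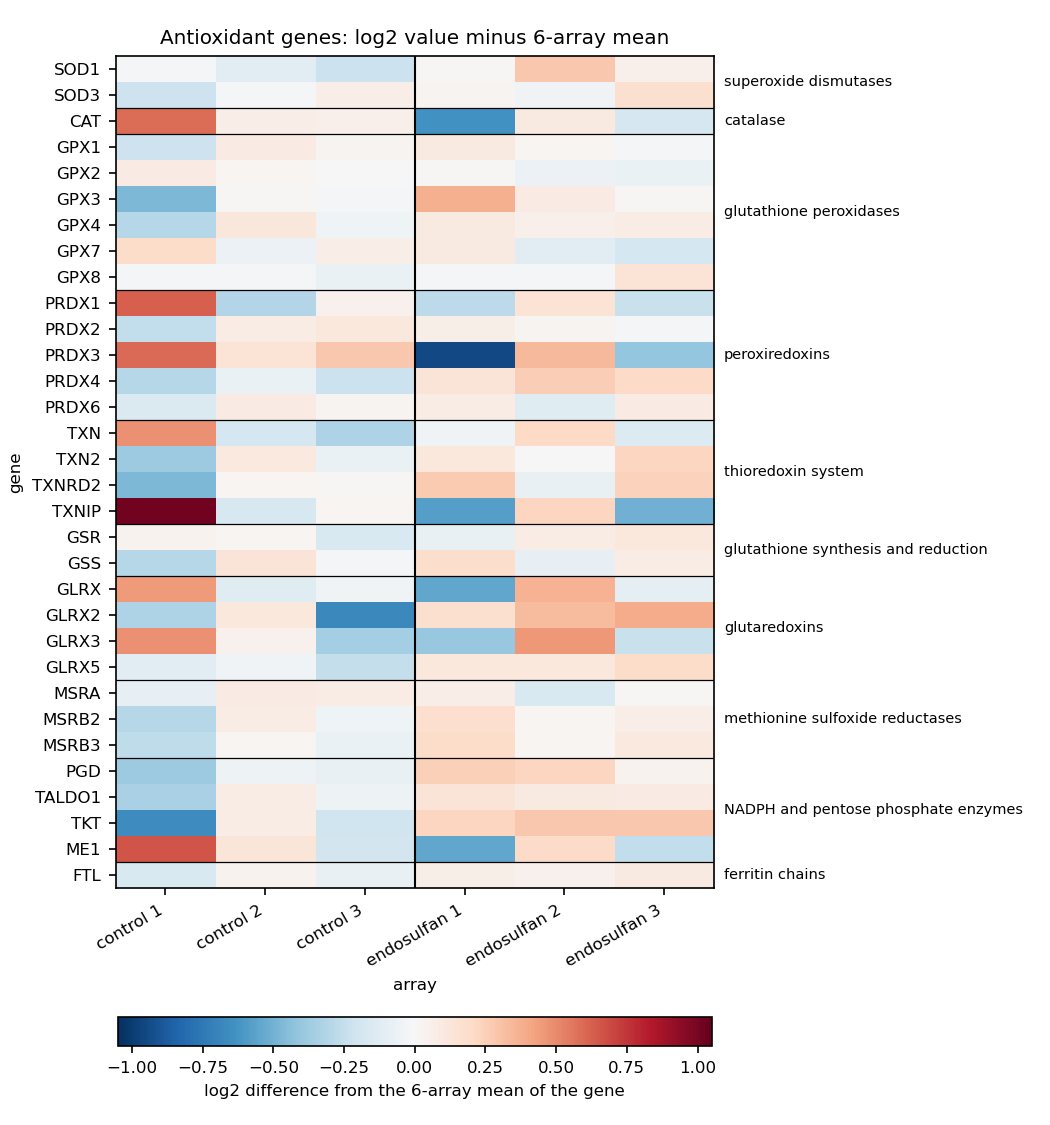
Log2 value minus the 6-array mean of the gene (colour, from blue below to red above) for the 32 antioxidant genes (rows, grouped by enzyme class) in the 6 arrays (columns). TXNIP, PRDX1, ME1, CAT and PRDX3 are high in control 1 and, with the exception of PRDX1, lowest in endosulfan 1, whereas TKT and TXNRD2 are lowest in control 1.

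The remaining genes of antioxidant metabolism were read from 9 further lists with 131 genes, of which 118 were measured. None passed over all genes in either direction with limma, 10 were higher and 21 lower at an unadjusted p below 0.05, or 8.47% and 17.8%, beside 6.64% and 10.5% of all genes and 9.24% and 15.4% of those above the median level, and the median log2 fold change was 0.08. In the list of quinone and lipid radical defence 4 of 14 genes were higher and 0 lower at that unadjusted p, with 6.64% of all genes higher and 10.5% lower. They were led by the NRF2 target NQO1 at a log2 fold change of 1.06 on its brighter probe set and 0.44 on the other, with CBR1, a carbonyl reductase, at 0.49 on its brightest of 7 probe sets, which ranged down to -0.23. Among glutathione transferases 0 of 13 were higher and 4 lower, with GSTM3 at 10.66, 9.74 and 10.33 in control and at 9.47, 9.15 and 9.37 in endosulfan arrays. One of its 3 probe sets was near 0, at -0.02.

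In glutathione synthesis, the subunits of the first and limiting enzyme lay on opposite sides. The catalytic subunit GCLC was at 6.32, 5.82 and 5.63 in control and at 4.91, 5.69 and 5.35 in endosulfan arrays, a difference of -0.61 on its brightest of 4 probe sets, which ranged up to 0.23. The modifier subunit GCLM was at 7.05, 6.78 and 6.48 in control and at 7.05, 7.39 and 7.05 in endosulfan arrays, a difference of 0.39. The adjusted p (limma, Benjamini-Hochberg) was 0.265 in GCLC and 0.300 in GCLM, and the groups of both genes overlapped.

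In iron, haem and copper handling 3 of 12 genes were higher and 3 lower at an unadjusted p below 0.05, as were 6.64% and 10.5% of all genes. BLVRB, a biliverdin reductase, was at 7.42, 7.99 and 7.54 in control and at 8.52, 8.25 and 8.43 in endosulfan arrays, with a difference of 0.75 ± 0.17 (SE, n = 3 each). TFRC, the transferrin receptor that brings iron into the cell, was at 9.12, 7.88 and 8.44 in control and at 6.20, 7.95 and 6.97 in endosulfan arrays, with a difference of -1.44 ± 0.46 (SE, n = 3 each) and 3 probe sets from -1.76 to -0.04. As in PRDX3, control 1 was the highest array of TFRC, endosulfan 1 the lowest, and endosulfan 2 lay among the controls. The adjusted p (limma, Benjamini-Hochberg) was 0.196 in BLVRB and 0.220 in TFRC. Of the regulators of these genes, 1 of 17 was higher and 6 lower at that unadjusted p (6.64% and 10.5% of all genes), among them FOXO3, which drives SOD2 and CAT in other cells, at -0.69.

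The remaining lists were read at the same unadjusted p below 0.05, at which 6.64% of all genes were higher and 10.5% lower. Of 14 NADPH producers 0 were higher and 1 lower, and of 16 oxidant sources 0 were higher and 2 lower. Of 4 genes of sestrins and peroxiredoxin repair 0 were higher and 1 lower. Of 19 further selenoenzymes and thioredoxin-fold proteins 2 were higher and 2 lower. SESN1, a sestrin that p53 and FOXO factors induce, was at 7.84, 6.56 and 6.60 in control and at 5.72, 6.38 and 5.89 in endosulfan arrays, with a geometric mean 2.002-fold lower in endosulfan on its brighter probe set and a log2 fold change of -0.42 on the other. Its adjusted p was 0.235 with limma and Benjamini-Hochberg adjustment. SRXN1, the sulfiredoxin that repairs over-oxidised peroxiredoxins, had a difference of 0.16, and its groups overlapped.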

How the data were processed

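RNA of 6 SH-SY5Y samples was read on 1-colour Affymetrix arrays. The authors deposited 1 table of log2 values, 1 column for each array. These are RMA summaries made in Affymetrix Expression Console, according to the submitters' processing notes. RMA's quantile step removes shifts shared by most transcripts. Versions, filters and genome build: not given in the sources used here. Detection calls were not used, and dim probe sets were kept.

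Of 49395 probe sets, 102 array controls were set aside and 49293 tested. The platform annotation named 1 gene for 44988, several for 1832 and none for 2473. Gene symbols needed no update against RefSeq. Groups came from the agent label, replicate numbers from the titles. Endosulfan was compared with control by limma 3.58.1 (lmFit, eBayes) in R 4.3.3, two-sided, with Benjamini-Hochberg adjustment over all features and a threshold of 0.05. Confidence intervals are limma's 95% intervals, unadjusted. Array quality was compared by exact permutation in scipy 1.17.1, and plots were made in Python 3.11.15 (matplotlib 3.10.9). The fit was also run on simulated data with independent noise for each gene. These held no array-wide effect, so the run does not show error rates where such effects exist.

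All listed genes are named. Those with an unadjusted p below 0.05 or without overlap get every array's value. Genes named from the other lists are among the 4 of smallest p in each. NADPH producers, oxidant sources, and selenoenzymes with thioredoxin-fold proteins are given by counts alone. Further values are given where a class turns on them, a choice made after they were seen. The members, lists and alternatives were chosen with earlier results of these data known. Alternatives were the replicate block, a further quantile normalization, median centring, a level filter, trend and robust moderation, array weights, no moderation, a fold limit of 1.5, a spike-in covariate, probe set means and leaving out arrays. The number of arrays limits the precision.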

Additional observations from a re-analysis of the deposited data

Results flagged for a closer look

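Array control probe sets, which play no part in the comparison of genes, had higher means in the endosulfan arrays, although single poly-A levels overlapped between the groups. For the poly-A spike-ins the log2 mean was 6.57 in control (SD 1.02) and 8.11 in endosulfan (SD 0.60), a gap of 1.55 (3 arrays a side, two-sided exact permutation test, p = 0.2). For the hybridisation controls, which are mixed in once the target is labelled, it was 10.05 in control (SD 0.29) and 10.70 in endosulfan (SD 0.19), a gap of 0.644 (the same exact test, p = 0.1, which no arrangement of 3 against 3 arrays can undercut). The 3′ minus 5′ difference of GAPDH, a measure of RNA integrity, was 0.75 in control (SD 0.06) and 0.84 in endosulfan (SD 0.04) without overlap (exact permutation test, p = 0.1), and that of beta-actin 3.59 and 3.67 (exact permutation test, p = 0.3). The part of these ratios in the results was not tested. The part of the spike-ins in the antioxidant results was examined only through the spike-in covariate.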

How the results depend on the processing

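No antioxidant gene passed under any alternative except array weights, where 8 did (GLRX2, PRDX4, GLRX5, TKT, SOD1 and TXN2 higher, PRDX3 and TXNIP lower, with adjusted p from 0.00282 to 0.0378) together with 5915 genes and 7101 probe sets. The estimate of those weights stopped before its tolerance was reached and gave control 3 and endosulfan 3 weights of 4.22 and 5.46. Of the 4 probe sets and 1 gene called over the whole table, 0 and 0 were called with the replicate block, without moderation and with the spike-in covariate, 1 and 0 without control 1 and endosulfan 1 together, and 0 genes with averaged probe sets. With 1 array left out, 0 to 7 probe sets, and 0 genes, antioxidant or other, were called.

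The 5 antioxidant genes higher at an unadjusted p below 0.05 were 3 with the replicate block, 11 with array weights, 2 without moderation, 0 with the spike-in covariate and 2 to 5 with 1 array left out, at 3 without control 3, 3 without endosulfan 1, 3 without endosulfan 2 and 2 without endosulfan 3. The lower count of 0 was 1 after a further quantile normalization and 1 after median centring (PRDX3 in both), 4 with array weights, 2 with probe set means and 0 to 4 with 1 array left out, the 4 (PRDX3, CAT, ME1 and TXNIP) without endosulfan 2. The shares of all genes at that unadjusted p under these alternatives are not given here, so these counts are not read as results about the antioxidant genes. The median log2 fold change of the 32 genes was 0.07 to 0.13 with 1 array left out. Deviations from the group means correlated across genes at -0.55, -0.47 and 0.12 in same-numbered arrays, and no control array correlated best with its own number. Such deviations sum to 0 within a group, which forces some correlations to be negative. They therefore cannot decide whether same-numbered arrays shared a culture or a day.

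Of the 506 alternative values of single genes, 465 stayed on their side and 41 changed sign. None of the 41 was in the 8 genes without overlap, whose sign cannot change when arrays are left out or weighted. The replicate block, both changes of moderation and the level filter leave a gene's difference as it was, so these values could not change sign in any gene. The spike-in covariate lowered most of those 8, to 0.22 in TKT, 0.14 in GLRX5, 0.12 in GLRX2, 0.063 in TALDO1 and 0.022 in FTL. With the spike-in covariate the log2 fold change was -0.0029 in GPX1, -0.016 in GPX4, 0.045 in GPX7, -0.024 in GPX8, 0.20 in PRDX1, -0.0011 in PRDX2, -0.10 in PRDX6, -0.024 in TXN2, -0.043 in GSR, -0.065 in GSS and 0.015 in GLRX. Without control 1 and endosulfan 1 it was -0.053 in GPX1, 0.088 in PRDX1, -0.089 in PRDX2, -0.078 in PRDX6, -0.065 in GSS, 0.22 in GLRX, 0.27 in GLRX3 and 0.0077 in ME1. Array weights gave -0.023 in GPX1, -0.092 in PRDX2 and 0.062 in GLRX3, probe set means -0.11 in PRDX6, 0.10 in MSRA and -0.053 in MSRB2, quantile normalization -0.0073 in TXN and median centring 0.0093 in MSRA. With 1 array left out the value ran from -0.022 to 0.13 in GPX1, -0.45 to 0.012 in PRDX1, -0.070 to 0.11 in PRDX2, -0.046 to 0.093 in PRDX6, -0.14 to 0.26 in TXN, -0.0016 to 0.21 in GSS, -0.41 to 0.040 in GLRX, -0.38 to 0.095 in GLRX3 and -0.11 to 0.014 in MSRA. The cause of these changes was not tested.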

Other observations

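Grouped by the compartment in which the proteins work, the 6 measured mitochondrial genes (PRDX3, TXN2, TXNRD2, GLRX2, GLRX5 and MSRB2) had a median log2 fold change of 0.25, with 5 on the higher side and PRDX3 at -0.68. The 5 genes of the secretory pathway (SOD3, GPX3, GPX7, GPX8 and PRDX4) had a median of 0.11. The 16 cytosolic genes had a median of 0.04, with 10 higher and 6 lower. The 4 measured genes of several compartments had a median of 0.11, and CAT, the peroxisomal gene, was at -0.48. Over all genes 60.2% lay on the higher side, with a median of 0.05. With the spike-in covariate the mitochondrial genes ran from -0.44 in PRDX3 to 0.14 in GLRX5. None of these genes passed with limma over all genes, and the compartments were not compared by a test.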
